A study of Mus musculus with 2 samples.

Results

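Notch signalling genes were examined in C2C12 cells, an immortalised mouse myoblast line, as a group of 10 genes chosen by symbol. The group comprised the receptors Notch1, Notch2 and Notch3, the ligands Jag1, Dll1 and Dlk1, the DNA-binding protein Rbpj and the targets Hes1, Hey1 and Heyl. All 10 were found among the 21829 gene symbols of the deposited values. A single library was made from WT cells and a single library from cells carrying the genotype label GNE KO (hereafter KO), so replicate error could not be measured for any difference given here, and no test was made. Both libraries were made from polyadenylated RNA. KO cells were derived from C2C12 by CRISPR–Cas9 editing of exon 2 of Gne, the gene of the enzyme that starts sialic acid synthesis, and edited cells were expanded as single-cell clones. How many clones stand behind the KO library is not given in the sources used here. Both lines were grown in the same serum-containing medium, and no treatment distinguished them. In these libraries the loss of Gne cannot be told apart from other properties of the clone.

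Notch receptors are read out by contact between cells. A DSL-family ligand on one cell (Jagged or Delta-like) pulls on the receptor of its neighbour, ADAM10 and then gamma-secretase cut the receptor, and the freed intracellular domain joins Rbpj and a Mastermind coactivator at target promoters. Genes of the HES and HEY families are the usual targets, and they encode repressors that hold back differentiation. In skeletal muscle this pathway is best known for keeping satellite cells quiescent and for restraining Myod1-driven differentiation of myoblasts.

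Values are in FPKM (fragment counts scaled to transcript length and to sequencing depth), a scale that allows levels to be compared between genes. A fold change is log2((KO + 1)/(WT + 1)) and is on the log2(FPKM + 1) scale, which understates the change of low genes. The 10542 genes whose mean over both libraries reached 1 FPKM were compared, and a gene was called when it lay beyond 1 in either direction, that is, more than 2-fold. By this rule 2.84% of the compared genes were called higher in KO cells and 3.43% lower, 6.27% together. Of the 10 members, 6 passed the filter (Notch1, Notch2, Notch3, Jag1, Rbpj and Hes1) and 0 of these 6 were called. Dll1, Dlk1, Hey1 and Heyl were below it. The median log2 fold change of the 6 was -0.0061, against 0.0061 for all compared genes. No shared shift of the members was measured. The member farthest from 0 was a target, Hes1, which lay just short of the limit.

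**Figure D1:**
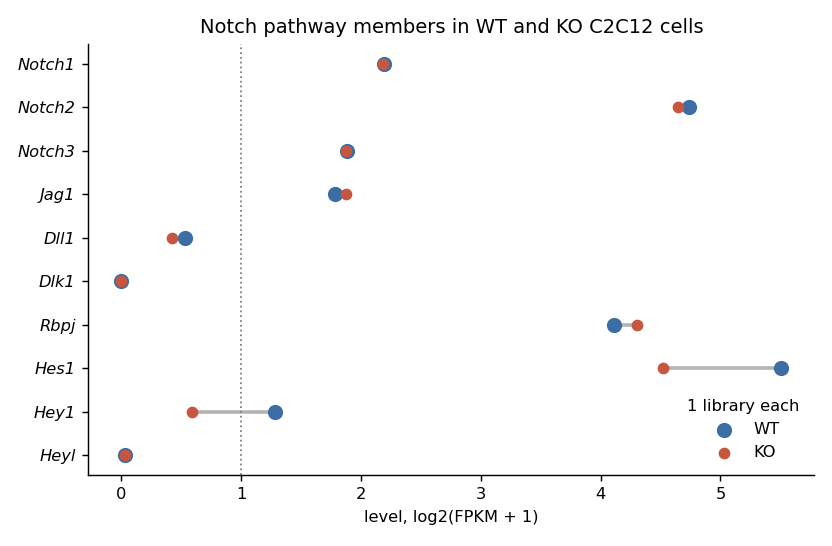
Level of each member as log2(FPKM + 1) on the horizontal axis, with 1 library each for WT (blue) and KO (red), a grey bar joining both values and a dotted line at 1 FPKM. The receptors, Jag1 and Rbpj have nearly overlapping points, and the long bars belong to Hes1 (44.5 and 22.0 FPKM) and Hey1 (1.43 and 0.504 FPKM).

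Notch2 was the main receptor transcript of these cells. It was at 25.7 FPKM in WT cells and 24.0 FPKM in KO cells, a log2 fold change of -0.09. Notch1 had 3.56 FPKM in WT and 3.55 FPKM in KO cells. Notch3, whose promoter is itself activated by Notch in several tissues, had 2.69 and 2.67 FPKM. Both differed by less than 0.01 on the log2 scale, and 2.42% of the compared genes were at least as near to 0 as Notch3. Notch4, the endothelial receptor, was at 0.042 FPKM in WT and 0.036 FPKM in KO cells. Summed over the 4 receptors, the level was 32.0 FPKM in WT and 30.3 FPKM in KO cells, of which Notch2 made up 80.3% and 79.3%. Both the amount of receptor RNA and its composition were nearly equal in these libraries. In GRCm39, Notch1 lies on chromosome 2 from 26347915 to 26406675 and Notch2 on chromosome 3 from 97920800 to 98057677. Notch3 and Notch4 are both on chromosome 17, from 32339794 to 32385893 and from 34783220 to 34807477.

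Ligand transcripts were much less even. Jag1 was at 2.45 FPKM in WT and 2.68 FPKM in KO cells, a log2 fold change of 0.09. Dll1, the ligand that myoblasts and muscle fibres present to satellite cells, was at 0.448 and 0.345 FPKM, below the filter in both libraries. Dll3 and Dll4 did not exceed 0.022 FPKM. The most abundant DSL ligand was Jag2, which is not among the 10 genes but belongs to the same family. It was at 26.05 FPKM in WT and 10.2 FPKM in KO cells, a log2 fold change of -1.28, and was called lower. Jag2 made up 90.0% of the summed DSL ligand level in WT and 76.9% in KO cells, while the share of Jag1 went from 8.45% to 20.2%. The sum over the 5 ligands was 28.9 FPKM in WT and 13.2 FPKM in KO cells, 0.457 times as much. Nearly all of this difference was that of Jag2.

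Dlk1 encodes a Delta-like protein without the DSL domain and is known as an inhibitor of adipogenesis and as an imprinted gene expressed during muscle growth. It was listed at 0 in both libraries, so no fold is given. Its paralogue Dlk2 was present, at 18.7 FPKM in WT and 4.97 FPKM in KO cells, with a log2 fold change of -1.72. Dlk1 lies on chromosome 12 from 109418749 to 109429262, several megabases from Jag2, which runs from 112871421 to 112893437. The genes within 5 Mb of Jag2 had a median log2 fold change of 0.15 (53 genes), and 1 of them was more than 2-fold lower. The lower level of Jag2 was not shared by these neighbours as a group.

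Rbpj, which binds target promoters with and without the intracellular domain, was at 16.3 FPKM in WT and 18.8 FPKM in KO cells, a log2 fold change of 0.19. Of the compared genes, 45.2% were at least as near to 0. The gene lies on chromosome 5 from 53623494 to 53814704. Mouse annotation also holds the processed pseudogenes Rbpj-ps1 and Rbpj-ps3, and how reads shared with them were divided is not known, so the level of Rbpj is uncertain to that extent.

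Hes1 was the most abundant of the 10 genes in WT cells and the only member near the limit. Hes1 had 44.5 FPKM in WT cells and 22.0 FPKM in KO cells, 0.493 times as much. On the log2(FPKM + 1) scale the difference was -0.99, just short of the limit of -1, and 3.54% of the compared genes were as low or lower. The call turned on the scale. With a pseudocount of 0.1 the log2 fold change was -1.02, which passes the limit, as do 4.47% of genes on that scale. Hes1 ranked 2110 among all genes in WT cells and 4059 in KO cells, and in KO cells it fell behind Notch2. It lies on chromosome 16 from 29882134 to 29886643. The 38 compared genes within 5 Mb had a median log2 fold change of 0.14, and 0 of them were more than 2-fold lower. The lowest was Fam43a, named after its value was seen, at -0.91 and 0.536 Mb away. After subtraction of the neighbours' median Hes1 stood at -1.13.

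**Figure D2:**
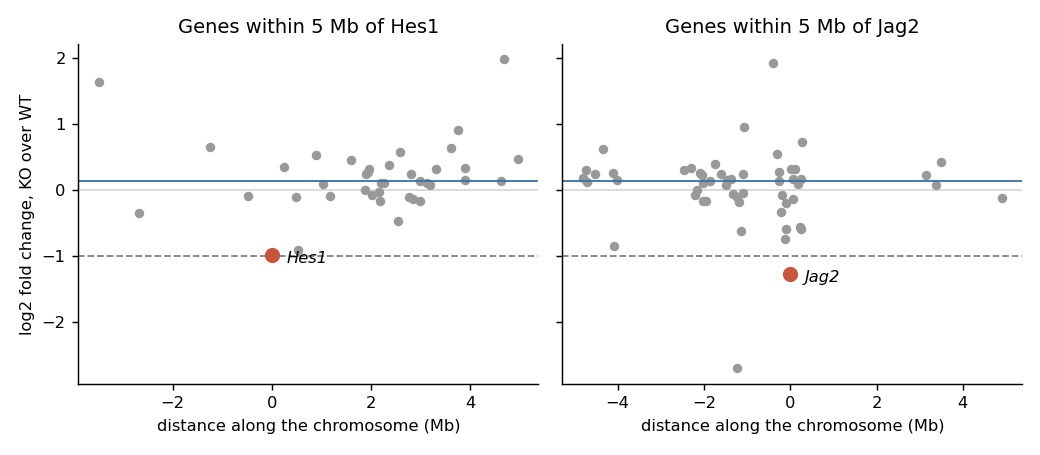
Log2 fold change of KO over WT (vertical axis) for the compared genes within 5 Mb of Hes1 (left) and Jag2 (right), against the distance between the lower coordinates of the genes (horizontal axis), with the central gene in red, the neighbours' median as a blue line and the limit of -1 dashed. Hes1 at -0.99 and Jag2 at -1.28 sit below most of their neighbours, whose medians are 0.14 and 0.15.

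Hey1, a HES-related repressor that responds to Notch in many cell types, was also lower in the KO library, at 1.43 against 0.504 FPKM. Its mean of 0.968 FPKM put it just below the filter, so it was not called. The log2 fold change was -0.69 with the pseudocount of 1 and -1.34 with a pseudocount of 0.1, and the ratio of the values was 0.352. Hey1 lies on chromosome 3 from 8726956 to 8732385, where 13 neighbours had a median of 0.21. Heyl, a target studied in satellite cells, was at 0.020 FPKM in WT and 0.024 FPKM in KO cells. At values this low the difference of Heyl could not be read. It lies on chromosome 4 from 123127349 to 123143682. Nrarp, a feedback inhibitor induced by Notch that is not among the 10 genes, was at 0.714 FPKM in WT and 0.162 FPKM in KO cells, again below the filter. Neither Hey1 nor Nrarp passed the filter.

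Of the other listed targets, some had lower values in KO cells and some were nearly equal. Myc was at 58.6 FPKM in WT and 35.2 FPKM in KO cells, a log2 fold change of -0.72, and Bcl6 was at 6.25 and 5.00 FPKM, a log2 fold change of -0.27. Neither was called. Hes6, a HES protein that opposes Hes1 and promotes myogenic differentiation, was at 18.7 FPKM in WT and 18.9 FPKM in KO cells. Ccnd1, cyclin D1, was at 163 and 164 FPKM. Hes5 was listed at 0 in both libraries, Hes7 did not exceed 0.172 FPKM, and Hey2 did not exceed 0.014 FPKM. Of the 11 listed targets 5 passed the filter and 0 were called in either direction, against 6.27% of all compared genes. At that share a count of 0 among so few genes says little. The median log2 fold change of the targets past the filter was -0.27.

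**Figure D3:**
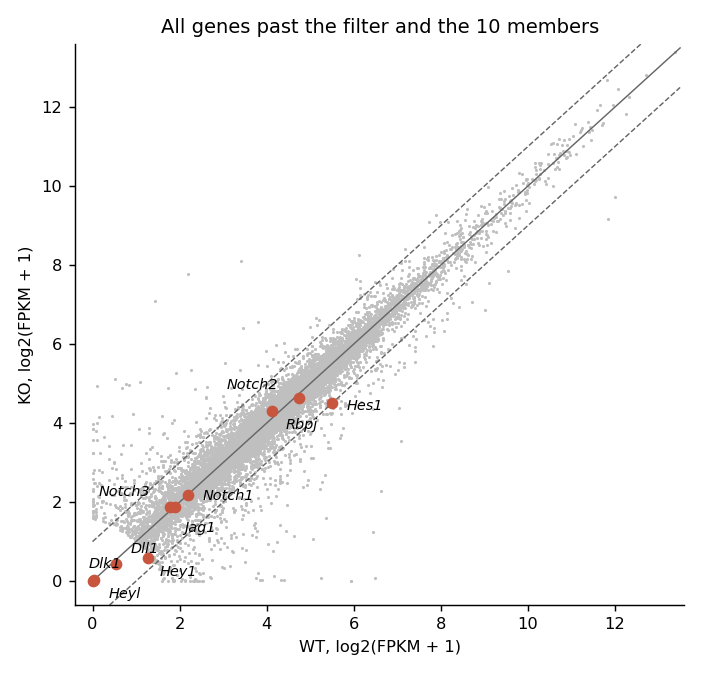
KO against WT level, both as log2(FPKM + 1), for the 10542 compared genes (grey) and the 10 members (red), with equality as a solid line and the 2-fold limits dashed. Hes1 sits on the lower limit, Hey1 lies between equality and the limit, and the receptors lie along the line of equality.

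RBPJ recognises a short sequence, and RefSeq promoter sequences (build GRCm38.p6) were searched for it. The letters GTGGGAA were looked for on both strands within the 250 bases before the annotated start. Of all 32851 promoters of that length, 5.42% held them. Promoters were matched for 65 of the 83 pathway genes, among them 7 of the 10 members (Notch1, Notch2, Notch3, Jag1, Dll1, Dlk1 and Rbpj). Hes1, Hey1 and Heyl were not matched. The letters were in 0 of these 7 members. A gene was counted when any of its promoters held the letters, a unit unlike the share of promoters. By gene, 6 of the 65 matched pathway genes (9.23%) held them. Among the matched targets the letters were in 3 of 6, namely Hes5, Hes7 and Hey2, and elsewhere in the pathway in Lfng, Psen2 and Spen. The following stretches hold them, in capitals, and are shown because Hes5, Hes7 and Hey2 are targets at or near 0 in both libraries, whereas Lfng, a Fringe glycosyltransferase, is expressed.
Lfng, chr5:140607202-140607268, plus strand: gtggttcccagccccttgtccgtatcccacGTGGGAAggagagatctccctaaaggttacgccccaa
Hes5, chr4:154960810-154960876, plus strand: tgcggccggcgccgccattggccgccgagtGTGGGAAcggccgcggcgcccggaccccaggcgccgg
Hes7, chr11:69120243-69120309, plus strand: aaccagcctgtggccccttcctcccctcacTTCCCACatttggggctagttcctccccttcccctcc
Hey2, chr10:30842954-30843020, minus strand: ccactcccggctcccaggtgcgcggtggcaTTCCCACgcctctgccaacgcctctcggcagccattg

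The capitals begin 109 bases before the start of Lfng, 83 before that of Hes5, 180 before that of Hes7 and 207 before that of Hey2, and in Hes7 and Hey2 they are on the opposite strand. Lfng was at 18.5 FPKM in WT and 11.998 FPKM in KO cells, a log2 fold change of -0.58. Among these genes the letters stood before both an expressed gene and genes at or near 0. The promoters of Jag2, called lower, of Nrarp, below the filter, and of the even receptor Notch2 are shown next over the whole window searched. None of the 3 holds the letters, nor do the matched promoters of Dlk2 and Neurl1a, also called lower. That says only that the letters are not in this window.
Jag2, chr12:112929496-112929745, minus strand: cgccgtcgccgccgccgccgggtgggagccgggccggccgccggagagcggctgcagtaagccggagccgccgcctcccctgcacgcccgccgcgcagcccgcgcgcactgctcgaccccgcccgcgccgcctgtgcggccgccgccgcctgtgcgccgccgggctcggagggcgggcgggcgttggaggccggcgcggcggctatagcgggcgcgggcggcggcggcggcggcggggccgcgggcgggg
Nrarp, chr2:25180508-25180757, plus strand: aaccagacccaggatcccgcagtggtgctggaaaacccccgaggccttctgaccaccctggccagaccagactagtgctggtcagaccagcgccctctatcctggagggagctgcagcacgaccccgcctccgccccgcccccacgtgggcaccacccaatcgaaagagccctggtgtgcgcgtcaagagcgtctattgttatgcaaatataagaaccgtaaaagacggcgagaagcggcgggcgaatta
Notch2, chr3:98013288-98013537, plus strand: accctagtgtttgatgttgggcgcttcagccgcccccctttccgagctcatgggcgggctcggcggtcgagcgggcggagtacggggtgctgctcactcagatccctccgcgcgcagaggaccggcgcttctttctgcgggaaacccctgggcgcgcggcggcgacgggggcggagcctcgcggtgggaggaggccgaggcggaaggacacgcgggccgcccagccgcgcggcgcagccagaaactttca

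The rest of the pathway was taken from lists of 83 genes, the 10 members included. Of these, 65 passed the filter, 5 were called higher in KO cells (7.69%, against 2.84% of all compared genes) and 3 lower (4.62%, against 3.43%). The median log2 fold change over the 65 was 0.04, close to that of all genes. Jag2, Dlk2 and Neurl1a were lower, and Thbs2, Ccn3, Mfap5, Dtx3l and Maml2 were higher. The lists were chosen with earlier results of these data known, so the shares are only a description. Ccn3, Mfap5 and Dtx3l were below 1 FPKM in WT cells and Neurl1a in KO cells. They passed the filter through the library where they were high. With a mean of at least 5 FPKM, 1 pathway gene was called higher and 2 lower.

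**Figure D4:**
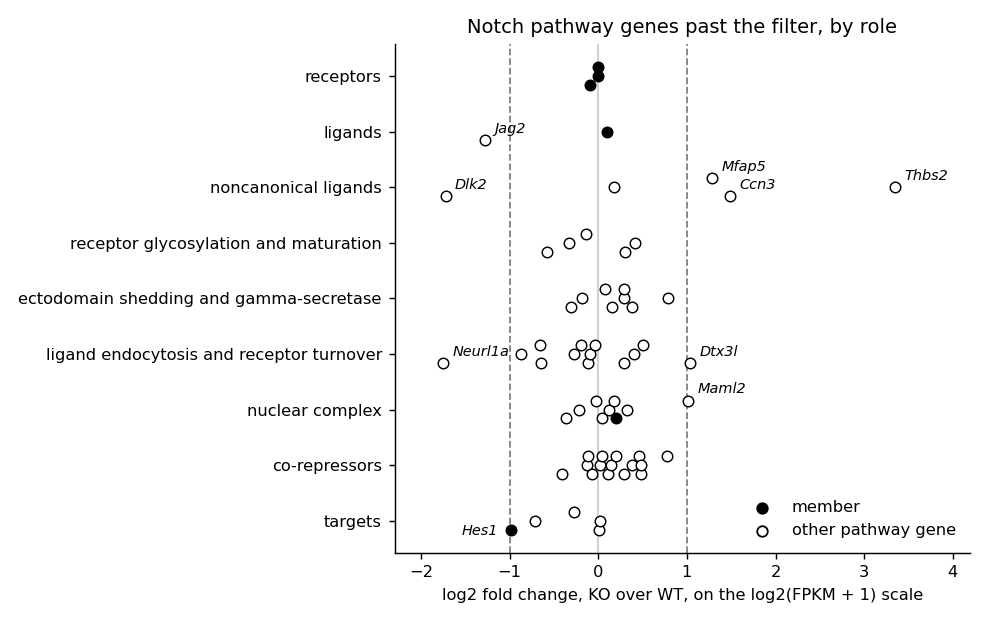
Log2 fold change of KO over WT (horizontal axis) for the 65 pathway genes past the filter, grouped by role (vertical axis), with members as filled circles, other genes as open circles and the 2-fold limits dashed. Called genes are named, 5 to the right and 3 to the left, and Hes1 sits at the left limit.

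Matrix proteins that can engage Notch receptors outside the DSL family included the pathway gene with the largest difference. Thbs2, a matricellular thrombospondin, was at 2.80 FPKM in WT and 37.8 FPKM in KO cells, a log2 fold change of 3.35. Ccn3 was at 0.847 and 4.18 FPKM, and Mfap5, a microfibril protein, at 0.889 and 3.62 FPKM, with log2 fold changes of 1.49 and 1.29. Egfl7, a secreted EGF-repeat protein, was at 3.77 and 4.41 FPKM. With a pseudocount of 5, Ccn3 was at 0.65 and Mfap5 at 0.55, and neither was called. The list of ligands outside the DSL family has 9 genes, the Delta-like Dlk1 and Dlk2 among them, and 5 passed the filter. Of these 5, 3 were called higher and 1, Dlk2, lower, against 2.84% and 3.43% of all compared genes. Ccn3 and Mfap5 passed the filter only through the KO library, where they were high. The list was also chosen with earlier results known, so these shares are only a description.

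Enzymes that modify the receptor were called in neither direction, against 6.27% of all compared genes, a share at which 0 among so few says little. Of 6 such genes 5 passed the filter, with log2 fold changes between -0.58 (Lfng) and 0.41 (Poglut1). Pofut1, which adds the O-fucose that Fringe proteins extend, was at 20.1 FPKM in WT and 15.8 FPKM in KO cells. Poglut1, which adds O-glucose, was at 25.1 and 33.7 FPKM, and the convertase Furin at 30.9 and 38.4 FPKM. Adam10, the sheddase of ligand-bound receptor, was at 29.2 and 38.2 FPKM, and the gamma-secretase subunits Aph1a and Psenen at 66.7 and 81.5 FPKM and at 114 and 91.4 FPKM. The gene of this list farthest from 0 was the gamma-secretase subunit Aph1b, at 4.79 and 8.96 FPKM, a log2 fold change of 0.78. None of the 8 protease and gamma-secretase genes past the filter was called, against 6.27% of all compared genes. Of the 8, 6 were above 0, as was the median of all compared genes, at 0.0061. The neighbours of Aph1b and Adam10 on chromosome 9 had medians of 0.32 and 0.24. Relative to them Aph1b was at 0.47 and Adam10 at 0.14.

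In the list of ligand endocytosis and receptor turnover, 13 of 14 genes passed the filter. Neurl1a, a Neuralized ubiquitin ligase of Notch ligands, was at 2.54 FPKM in WT and 0.053 FPKM in KO cells, a log2 fold change of -1.75. Mib1, the ligase on which ligand activity mostly depends in mammals, was at 20.7 and 20.1 FPKM. Dtx3l, a Deltex-related ligase, was at 0.928 and 2.96 FPKM, a log2 fold change of 1.04, just past the limit. Its 56 neighbours on chromosome 16 had a median of 0.14, and relative to them Dtx3l was at 0.89 and not called; with a pseudocount of 5 it was not called either. Dtx3 was at 28.1 and 25.9 FPKM and the ubiquitin ligase Nedd4 at 195 and 259 FPKM. Apart from Neurl1a and Dtx3l, no gene of the list was called. Of the 13 genes, 1 was thus called higher and 1 lower (7.69% each), against 2.84% and 3.43% of all compared genes.

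All 9 genes of the nuclear complex passed the filter, and 1 of them was called higher (11.1%, against 2.84% of all compared genes). The coactivator Maml2 was at 2.85 FPKM in WT and 6.77 FPKM in KO cells, a log2 fold change of 1.01, just past the limit. Its 22 neighbours on chromosome 9 had a median of 0.31, and after its subtraction Maml2 was at 0.71 and no longer called. Snw1 was at 55.5 and 42.9 FPKM and the acetyltransferase Kat2a at 44.05 and 37.7 FPKM. Among 16 co-repressor genes 15 passed the filter and 0 were called, against 6.27% of all compared genes in either direction. Their median log2 fold change was 0.14. The most abundant were Tle5 (listed under its older symbol Aes), at 351 and 489 FPKM, Ctbp1, at 170 and 162 FPKM, and Hdac2, at 91.9 and 101 FPKM.

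The targeted gene, Gne, was at 6.67 FPKM in WT and 7.34 FPKM in KO cells, so its RNA level does not show which library carries the edit. Markers of the cell line differed between the libraries as well. Of 8 myoblast markers 6 passed the filter, of which 3 were called lower and 1 higher, against 3.43% and 2.84% of all compared genes. The summed level of the 8 was 263 FPKM in WT and 104 FPKM in KO cells. Myf5, called higher at 1.07 on the log2 scale, was at 9.14 and 20.3 FPKM. The 13 compared genes within 5 Mb of Myf5 had a median of 0.35. With that median subtracted Myf5 stood at 0.72 and was no longer called, whereas the 3 markers called lower stayed past the limit. Vcam1, at 32.1 and 51.3 FPKM, and Itga7, at 47.4 and 28.4 FPKM, were not called. Des, at 97.6 and 3.84 FPKM, and Cdh15, at 16.6 and 0.701 FPKM, were called lower. So was Myod1, which HES proteins repress, at 59.97 FPKM in WT and listed at 0 in KO cells. Pax7 and Msc were listed at 0 in both. Myotube markers summed to 3.58 and 5.18 FPKM over 8 genes. The higher sum in KO cells was carried by Acta1 (1.84 and 3.93 FPKM) and Mylpf (0.844 and 1.16 FPKM). The 6 others were below the filter and had lower values in KO cells. Among them, Mymk was at 0.604 and 0 FPKM and Myog at 0.068 and 0.027 FPKM. The 6 fibroblast markers summed to 345 and 171 FPKM, a difference carried by Ly6a (198 and 146 FPKM) and Cd34 (136 and 10.6 FPKM). Pdgfra (10.8 and 12.3 FPKM), Dcn (0.272 and 1.68 FPKM) and Dpt (0.041 and 0.493 FPKM) had higher values in KO cells, and Lum was at 0 in both. The pericyte list held Cspg4 at 18.9 and 16.8 FPKM and Rgs5 at 0.126 and 0.137 FPKM. The neural list went from 22.6 to 1.42 FPKM, through Tubb3 and Map2, with Sox10 at 0 in both libraries. Tubb3 and Map2, the only 2 of its 6 genes past the filter, were called lower, against 3.43% of all compared genes. Haematopoietic markers summed to 3.11 and 1.58 FPKM, nearly all Cd68 and Lyz2, with Ptprc at 0, epithelial markers to 0.315 and 0.020 FPKM, led by Krt19 and Krt8, and endothelial markers to 0.019 and 0.028 FPKM, with Tek and Pecam1 the highest. The part of these differences in the levels of Hes1, Hey1 and Jag2 was not tested. In bulk RNA, fewer cells of a type and less RNA per cell cannot be told apart.

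How far each value rests on its processing is shown for 4 members in the plot of fold changes by setting. Notch2 stayed between -0.11 and -0.08 and Rbpj between 0.16 and 0.36 under all settings tried. Hes1 stayed between -1.13 and -0.88, around the limit, and Hey1 between -1.51 and -0.22, always below 0.

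**Figure D5:**
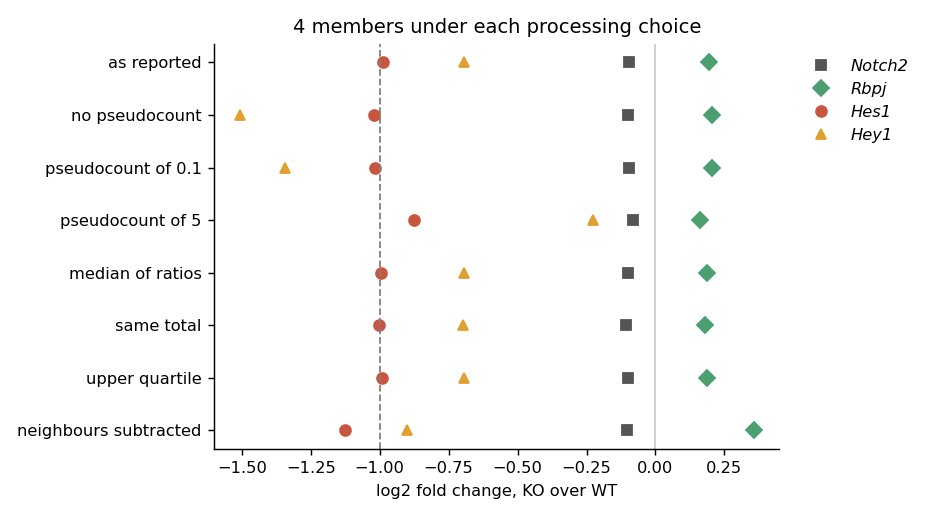
Log2 fold change of KO over WT (horizontal axis) for Notch2, Rbpj, Hes1 and Hey1 as reported and under 7 other settings (vertical axis), with the limit of -1 dashed. Hes1 moves little but crosses the limit, and Hey1 moves with the pseudocount from -1.51 to -0.22.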

How the data were processed

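RNA sequencing of WT and KO C2C12 cells was analysed, 1 library each, with genotypes taken from the sample labels. The values deposited by the authors, 1 for each gene symbol in either library, name no unit. They were read as FPKM that the authors quantified with RSEM, since their totals were 568543 in WT and 574253 in KO cells and thus not fixed. TPM restricted to the same genes would look alike. Between these units the plain KO to WT ratios differ by a constant factor. Fold changes with a pseudocount, and the filter, would not shift evenly, so the counts passing and called depend on the unit. Hes1 lay close to the limit and Hey1 close to the filter. Per the submitters' processing notes, reads were trimmed with Trim Galore 0.6.6, aligned with STAR 2.7.9a and quantified with RSEM 1.3.3 on GRCm38, whereas the methods name GRCm39 and another STAR release. The sample labels describe an Illumina stranded library, and the supplementary methods an MGI directional kit. Because read numbers are unknown, counting intervals were not computed. The most frequent KO to WT ratio among 406 genes between 0.02 and 0.1 FPKM in both libraries was 1.15 (bins of 0.05 on the log2 scale), which describes relative depth only.

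Symbols occurring more than once (24 surplus rows among 21853) were reduced to their highest row by mean. Fold changes used a pseudocount of 1, a minimum mean of 1 FPKM and a limit of 1 on the log2 scale, the fold limit of the study's methods, whose adjusted P value needs replicates. No significance test was made. Positions came from GENCODE vM39 on GRCm39 by symbol, for 10171 of the 10542 genes, and neighbours were compared genes within 5 Mb. Promoter sequences came from RefSeq. The members and lists were chosen with earlier results of these data known. Genes were named if they were members, called pathway genes, the 3 highest of each pathway list, the highest of each marker list, or Gne. Genes with a pattern like that of a called member were to be named, and with 0 called members there were none. Nrarp, Lfng and other targets outside this rule were chosen after their values were seen. The code that makes the calls was checked on simulated data. Python 3.11.15, numpy 2.4.6 and pandas 2.3.3 were used.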

Additional observations from a re-analysis of the deposited data

How the results depend on the processing

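With single libraries no replicate could be left out in turn. No paired analysis was possible because the groups share 1 replicate number and no result comes from a test. Counts were regarded as moved past a factor of 1.5, and a fold change when it crossed the limit or moved by more than 0.438, the interquartile range of all genes, rules set after values had been seen. Hes1 crossed the limit with a pseudocount of 0.1 (-1.02), with no pseudocount (-1.02, added once the values were known), with libraries scaled to the same total (-1.0009) and with the neighbours' median subtracted (-1.13), so that 1 member, not 0, was called lower under each of these 4. Scaling by the median of ratios or the upper quartile used factors of 1.005 and 1.004 and did not move it across. Hey1 was at -1.34 with a pseudocount of 0.1, -1.51 with none and -0.22 with a pseudocount of 5. For these low values the pseudocount itself sets the size. Of the pathway genes, 5 higher became 1 (Thbs2) with a pseudocount of 5, 1 with a mean of at least 5 FPKM and 3 with neighbours subtracted, where Maml2 and Dtx3l were lost, and 3 lower became 5 with a pseudocount of 0.1. Over all genes, the pseudocount of 5 left 102 higher and 176 lower genes of 299 and 362, and the filter of 5 FPKM, which compares fewer genes, left 145 and 221. Jag2 stayed between -1.42 and -1.03 and was called lower under every alternative run. Called values changed sign under none of the alternatives.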

Other observations

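The genes below were chosen after the values had been seen, and are given as values. Of the 4 genes of Id proteins, which dimerise with E proteins and block Myod1-type factors, 3 passed the filter and 1, Id3, was called lower, against 3.43% of all compared genes. Id3 was at 226 FPKM in WT and 98.6 FPKM in KO cells, a log2 fold change of -1.19. Id2 was at 92.9 and 47.8 FPKM, a log2 fold change of -0.94, and Id1 at 151 and 108 FPKM, a log2 fold change of -0.48, neither of them called. Id4 was at 0.033 and 0.025 FPKM. The HES-related repressors Bhlhe40 and Bhlhe41 were at 24.9 and 28.5 FPKM and at 23.1 and 16.6 FPKM, neither of them called. TspanC8 tetraspanins, which escort Adam10 to the cell surface, summed to 88.4 FPKM in WT and 91.7 FPKM in KO cells. Of these, 0 were called among the 4 past the filter, against 6.27% of all compared genes in either direction.

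Of 6 genes tied to Notch in quiescent satellite cells, 4 passed the filter. Of these, 1, Spry1, was called higher and 0 lower, against 2.84% and 3.43% of all compared genes. Pax7 and the calcitonin receptor gene Calcr were listed at 0 in both libraries. The collagen genes Col5a1, Col5a3 and Col6a1, which Notch activates in satellite cells, had log2 fold changes of 0.03, 0.83 and 0.51. With the median of their neighbours subtracted these were 0.12, 0.53 and 0.11. Spry1, an inhibitor of growth factor signalling linked to quiescence, was at 0.156 FPKM in WT and 3.06 FPKM in KO cells, a log2 fold change of 1.81. It passed the filter only through the KO library, where it was high.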
